A study of Mus musculus with 30 samples.

Results

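The vitamin D receptor axis was followed in colon scrapes of mice through 7 genes, taken by name from the 46078 genes of the counts table. They are the receptor Vdr, its partner Rxra, the enzymes Cyp27b1 and Cyp24a1, and the calcium transport genes Trpv6, S100g and Atp2b1. All 7 were found in the table, and 6 passed the filter on low counts. Cyp24a1 did not pass.

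RNA was sequenced from 30 wild-type C57BL/6J mice, male and female, with 1 library per mouse and 5 mice in each of 6 groups. Saline-treated controls, called vehicle here, were sampled at 9 weeks, while AOM/DSS mice received the carcinogen azoxymethane (AOM) once at 10 mg/kg and then 3 cycles of dextran sulfate sodium (DSS), which inflames the colon, at 2.5% in the drinking water, and were sampled at 9 or 15 weeks. The mice were 5 to 10 weeks old at the start. Since vehicle mice were sampled at 9 weeks alone, the effects of AOM/DSS and of elapsed time in the 15-week values cannot be told apart, and both AOM/DSS groups of a sex share 1 vehicle group. RNA came from a scrape of the epithelial layer of the colon, which also held RNA of markers of other cell types, so fewer cells of a type and less RNA per cell cannot be told apart in any value below.

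Vitamin D acts through 1,25-dihydroxyvitamin D, which is made from its precursor by Cyp27b1 and inactivated by Cyp24a1. The hormone binds Vdr, a nuclear receptor, which pairs with a retinoid X receptor such as Rxra and binds DNA beside its target genes. In the intestine the targets include Cyp24a1 itself and the path by which calcium crosses the epithelium: the apical channel Trpv6, the cytosolic calcium carrier S100g (calbindin-D9k), and the basolateral calcium pump Atp2b1 (PMCA1).

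The members lie on 5 chromosomes of GRCm38, the build of the deposited annotation. Vdr spans chr15:97854425-97910630 on the minus strand and Rxra chr2:27676440-27762957 on the plus strand. Cyp24a1 spans chr2:170482708-170497145 (minus) and Cyp27b1 chr10:127048250-127053006 (plus). Of the transport genes, Trpv6 spans chr6:41620621-41636405 (minus), S100g chrX:162961992-162964599 (minus) and Atp2b1 chr10:98915152-99026143 (plus).

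The sequence before the start of 4 members is shown because these are the members whose levels changed between groups or varied most between mice. RefSeq promoter windows (GRCm38.p6) were found for 6 of the 7 members, all but Cyp24a1. There were 8 windows in all, since Atp2b1 and Rxra each had another start. The Atp2b1 window nearest to the gene start of the deposited annotation is shown. The Vdr window lies inside the gene as the deposited annotation spans it, since that span starts at 97910630 on the minus strand. Each sequence covers the 230 bases from 250 to 21 before the RefSeq start, written 5′ to 3′ on the strand of the gene. Capitals mark 2 motifs, searched on both strands and not overlapping in these windows. One is the nuclear receptor half-site AGGTCA. Its variants were counted with it, and these are AGTTCA and also GGGTCA and also GGTTCA. The other motif is the GC box GGGCGG.
Vdr, chr15:97908317-97908546, minus strand: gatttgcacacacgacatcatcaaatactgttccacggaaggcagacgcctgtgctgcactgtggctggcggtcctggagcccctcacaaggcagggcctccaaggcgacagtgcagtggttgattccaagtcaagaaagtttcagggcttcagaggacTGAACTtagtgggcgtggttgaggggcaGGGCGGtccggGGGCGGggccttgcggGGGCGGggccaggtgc
Atp2b1, chr10:98914902-98915131, plus strand: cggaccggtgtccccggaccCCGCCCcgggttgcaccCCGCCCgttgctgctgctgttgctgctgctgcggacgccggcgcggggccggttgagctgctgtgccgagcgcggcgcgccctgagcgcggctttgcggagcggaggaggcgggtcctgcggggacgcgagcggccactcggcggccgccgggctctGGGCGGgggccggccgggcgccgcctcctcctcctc
Trpv6, chr6:41636426-41636655, minus strand: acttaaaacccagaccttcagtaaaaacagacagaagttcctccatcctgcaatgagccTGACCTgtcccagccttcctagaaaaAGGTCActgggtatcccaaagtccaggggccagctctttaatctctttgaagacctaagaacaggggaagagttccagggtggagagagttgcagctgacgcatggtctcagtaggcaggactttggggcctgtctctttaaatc
S100g, chrX:162964620-162964849, minus strand: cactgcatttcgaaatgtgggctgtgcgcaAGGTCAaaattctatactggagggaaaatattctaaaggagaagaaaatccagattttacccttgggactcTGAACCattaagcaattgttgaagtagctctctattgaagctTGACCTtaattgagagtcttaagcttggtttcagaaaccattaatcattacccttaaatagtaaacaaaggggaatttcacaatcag
The window of Vdr held 3 GC boxes and 1 half-site, and the window shown for Atp2b1 held 3 GC boxes and 0 half-sites. The other Atp2b1 window held 2 GC boxes and 0 half-sites, at 77.8% G and C. Trpv6 had 2 half-sites and S100g 3, with 0 GC boxes in either. A half-site was present in 36.5% of the 32851 windows of the same length, and a GC box in 29.8%, so either motif is common. Direct repeats of the half-site spaced by 3 bases are the arrangement known for Vdr with a retinoid X receptor. They were in 0.0396% of all windows and in 0 of the windows of the members. Exact matches this rare cannot show in 8 windows whether the members have such an element, and Cyp24a1 had no window. The Vdr and Atp2b1 windows were rich in G and C, at 62.2% and 80.4%, against 49.6% in Trpv6 and 37.4% in S100g. A match is a description of the letters and not of binding.

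Counts on genes ran from 9265804 to 30806392 per library. Markers of epithelium were high in all libraries, summing to 12929 to 23012 CPM (counts scaled to the size of each library) over 10 genes. Smooth muscle markers (8 genes) summed to 5735 CPM in male vehicle replicate 1 and to at most 276 CPM in the other 29 libraries. This library, female 9-week replicate 5 and female vehicle replicate 1 were the least like their own groups, with median Spearman correlations to the rest of the group of 0.946, 0.958 and 0.963. Changes of the members after AOM/DSS whose call was made or lost without these 3 libraries are given with both values. A gene was called changed when its adjusted p was under 0.05 by edgeR's quasi-likelihood test with Benjamini-Hochberg adjustment over all 16261 genes tested, its log2 fold change was beyond 0.4 and its mean was at least 1 FPKM (fragments per transcript length and depth) in a compared group.

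Compared as TPM, which divides by transcript length and scales each library to the same total, Vdr was the most abundant member. Its median over the 30 libraries was 70.9 TPM, with a range of 21.2 to 164. Atp2b1 followed with a median of 25.2 TPM and Rxra with 13.9 TPM, and the order of these 3 genes was the same in 30 of 30 libraries. S100g had a median of 11.6 TPM but ranged from 0.789 to 183 TPM, and it lay below Rxra in only 16 of 30 libraries, so these neighbours do not differ beyond their spread. Trpv6 had a median of 0.869 TPM and Cyp27b1 one of 0.0699 TPM. Cyp24a1 was listed at 0 TPM in 28 of 30 libraries. A mitochondrial gene, mt-Nd4l, held 39.2% to 58.1% of all TPM, and TPM values of every other gene move with that share, so groups were compared in CPM.

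**Figure D1:**
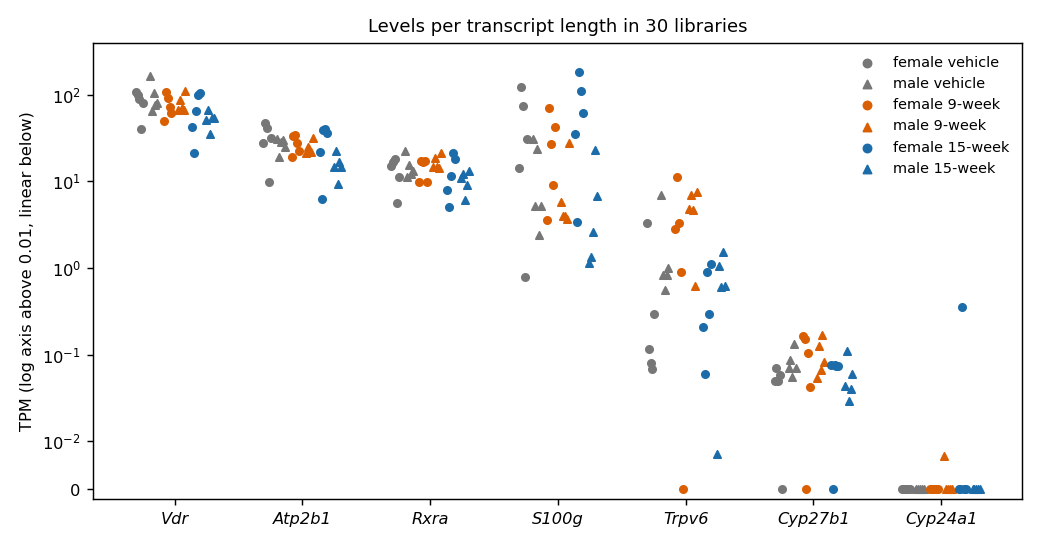
TPM of each gene in the 30 libraries, on an axis that is logarithmic above 0.01 TPM and linear below it; colours mark treatment and shapes mark sex. Vdr lies highest, with a median of 70.9 TPM, S100g and Trpv6 spread most among the genes seen in nearly every library, and Cyp24a1 is at 0 in 28 libraries.

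Vdr was lower after AOM/DSS. It was 1.41-fold lower than in vehicle at 9 weeks, with log2 fold changes of -0.53 in males and -0.46 in females. Whether the 15-week level lay above or below the 9-week level depended on the scale. In vehicle-treated females its level was 731, 755, 697, 632 and 697 CPM (replicates 1 to 5), and in vehicle-treated males 802, 625, 847, 480 and 546 CPM. At 9 weeks of AOM/DSS it was 396, 557, 522, 410 and 663 CPM in females and 406, 483, 406, 441 and 557 CPM in males. All 10 libraries at 9 weeks lay below the vehicle median of 697 CPM, and 5 of them lay below every vehicle library, although the groups overlapped. At 15 weeks Vdr was 548, 490, 486, 713 and 560 CPM in females and 629, 556, 501, 515 and 398 CPM in males, with 9 of 10 libraries below the vehicle median and an overlap with both other conditions.

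Pooled over sexes, Vdr averaged 484 ± 89.1 CPM at 9 weeks and 681 ± 113 CPM in vehicle (SD, n = 10 each). The log2 fold change was -0.49 (SE 0.11, 95% CI -0.72 to -0.27, adjusted p = 0.00252, edgeR). Vdr was 1 of 2 members called in this comparison, the other being Atp2b1, against 8.51% of all genes tested. Both were lower, as were 2.87% of all genes. At 15 weeks the mean was 539.6 ± 85.9 CPM (SD, n = 10) and the log2 fold change from vehicle was -0.34 (SE 0.11, 95% CI -0.56 to -0.11, adjusted p = 0.0364, edgeR), which is under the fold minimum, and 0 members were called against 7.79% of all genes. Between 15 and 9 weeks the log2 difference of Vdr was 0.16 (95% CI -0.07 to 0.38, adjusted p = 0.386, edgeR), and again 0 members were called, against 2.42% of all genes. On TPM rescaled without mitochondrial genes the 15-week level was the lower one, with a log2 difference from 9 weeks of -0.072 (adjusted p = 0.687, limma), and Vdr was called lower than vehicle at 15 weeks (-0.58, adjusted p = 0.00387, limma), also in males alone (-0.66, adjusted p = 0.0129, limma).

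Within each sex the log2 fold changes of Vdr at 9 weeks were close to each other. In males it was -0.53 (SE 0.16, adjusted p = 0.0324, edgeR) and in females -0.46 (SE 0.16, adjusted p = 0.0960, edgeR). Vdr was the 1 member called in males, where 7.31% of all genes were called and 2.88% were called lower, and 0 members were called in females, against 2.90%. The test of the difference between the sexes gave a log2 value of -0.06 (95% CI -0.52 to 0.39, adjusted p = 0.968, edgeR), so a difference in the fall of Vdr was not detected, while one of up to 0.52 on the log2 scale is within the interval. No gene was called in this interaction or in that at 15 weeks (0.00% of 16261 in each, with 1205 and 1245 genes at an unadjusted p under 0.05). At 15 weeks the log2 fold changes of Vdr were -0.34 in males and -0.33 in females, neither called, with 8.92% and 0.0984% of all genes called. The call in males was lost without any of 6 of the 10 libraries compared, with an adjusted p of up to 0.104 without male vehicle replicate 3, and in females Vdr was called without female 9-week replicate 5 (log2 fold change -0.59, adjusted p = 0.0196, edgeR). Without the 3 libraries least like their groups Vdr was -0.45 in males (adjusted p = 0.0756, edgeR), not called, and -0.56 in females (adjusted p = 0.0213, edgeR), called.

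The pooled 9-week call of Vdr held with each of the 20 libraries left out in turn, with log2 fold changes from -0.56 to -0.44. Without the 3 libraries least like their groups it was -0.50 (adjusted p = 0.00201, edgeR). It was lost on log2 TPM (-0.17, adjusted p = 0.642, limma) and was -0.50 (adjusted p = 0.00894, limma) on TPM rescaled without mitochondrial genes.

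Markers of other cells moved in the same comparison. T cell markers were called higher in 5 of 8, macrophage markers in 4 of 10 and plasma cell markers in 2 of 6. Of 6 B cell, 10 mesenchyme and 8 smooth muscle markers, 0 were called. Of all genes, 8.51% were called in either direction. Of 8 neutrophil markers, 4 were called higher at 9 weeks, and their mean log2 CPM was -2.49 to -1.54 in vehicle-treated females, -1.77 to -0.30 in vehicle-treated males, -2.21 to 3.81 in females and 0.61 to 3.09 in males at 9 weeks, and -1.90 to 0.30 and -1.66 to 1.59 at 15 weeks. Their summed level ran from 12.8 to 142.2 CPM and 97.8 to 179 CPM in the vehicle groups. At 9 weeks it ran from 10.9 to 181 CPM and 86.8 to 212 CPM. The called markers S100a8, S100a9 and Retnlg averaged 0.0641, 0.245 and 0.0223 CPM in vehicle and 6.97, 14.3 and 0.949 CPM at 9 weeks. Most of the vehicle sums thus came from other markers of the list. S100a8 and Cxcr2 were at 0 counts in all vehicle-treated females. Over the 30 libraries the log2 level of Vdr and the neutrophil mean had a Pearson r of -0.73, and -0.52 after each group was centred on its own mean; the points share their libraries and group differences. With the plasma cell, macrophage, T cell and B cell markers r was -0.58, -0.50, -0.45 and -0.44. Within groups these values were weaker, at -0.32, -0.29, -0.15 and -0.31. Of 10 epithelial markers, 0 were called at 9 weeks, and their median log2 fold change was 0.15. With a mesenchyme marker score as a covariate the log2 fold change of Vdr at 9 weeks was -0.48 (adjusted p = 0.00425, edgeR). The part of neutrophils, macrophages, T cells, B cells and plasma cells in the level of Vdr was not tested.

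Vdr did not differ detectably between the sexes. Over all conditions males averaged 546 CPM and females 590 CPM, with a log2 difference of -0.12 (95% CI -0.30 to 0.07, adjusted p = 0.490, edgeR). This comparison over pooled conditions was added after the sex comparisons of single conditions were seen. The genes whose log2 CPM was most like that of Vdr over the 30 libraries were Vsig10, Gab1 and Epb4.1l1, with Pearson r of 0.89, 0.88 and 0.88, out of 11740 genes searched.

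Rxra changed little. Its level ran from 90.4 to 177.7 CPM over the 30 libraries. The group medians lay between 112 CPM in males at 9 weeks and 126 CPM in vehicle-treated males, and all 6 groups overlapped. Its log2 fold change was -0.16 at 9 weeks (95% CI -0.38 to 0.06, adjusted p = 0.338, edgeR) and -0.00 at 15 weeks (95% CI -0.22 to 0.21, adjusted p = 0.982, edgeR). Across libraries Rxra and Vdr had a Pearson r of 0.64 (n = 30). The genes most like Rxra were Gna11, Adap1 and Erbb2, with r of 0.89, 0.85 and 0.84.

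**Figure D2:**
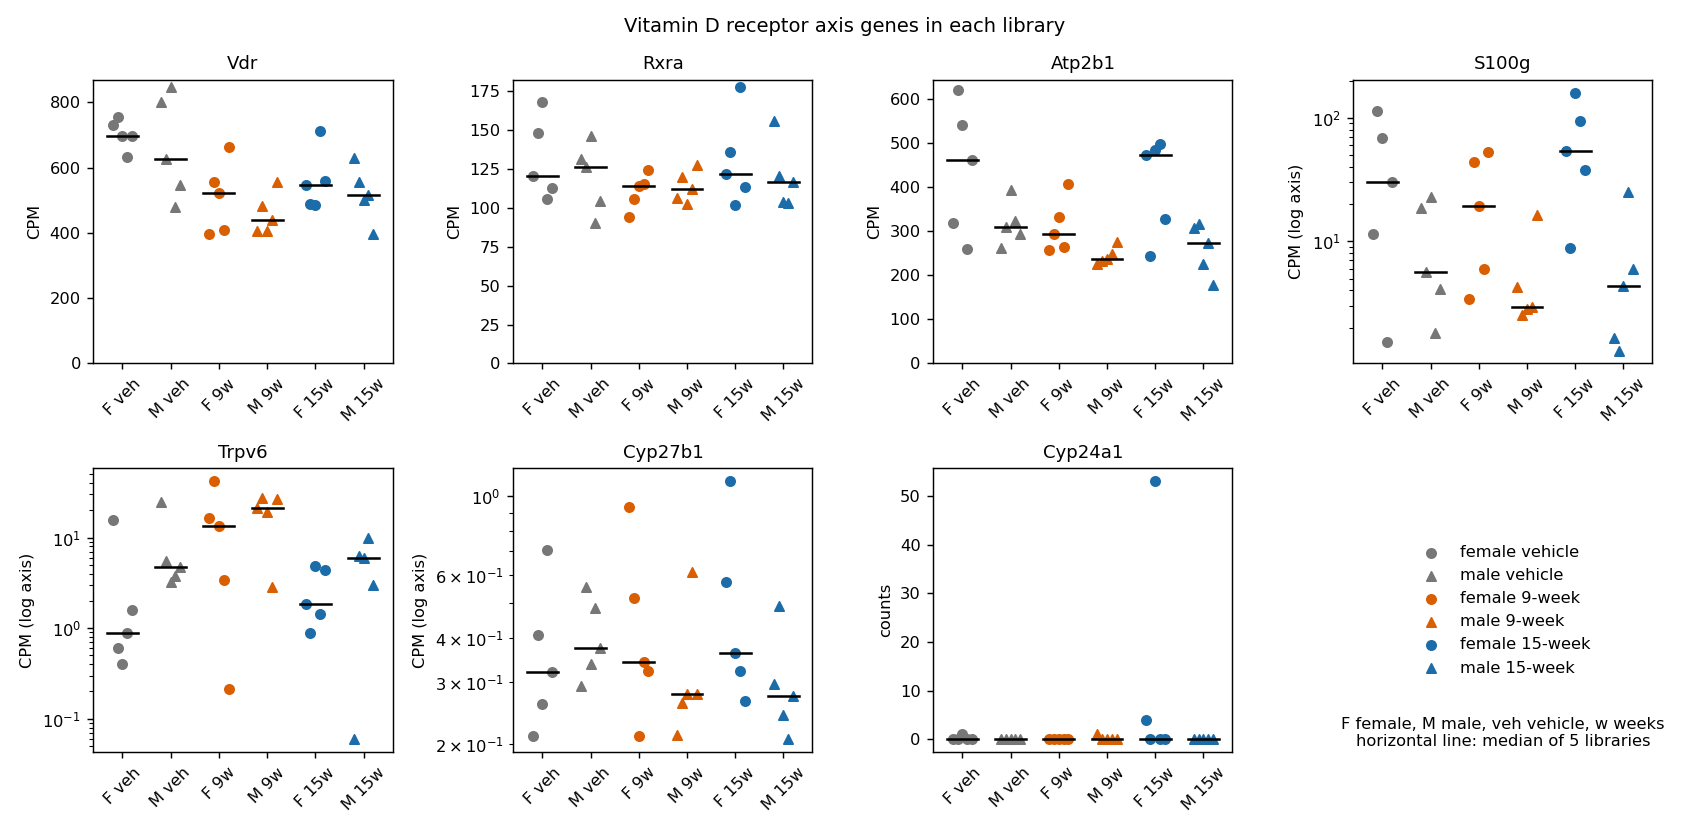
Level of each gene in each of the 30 libraries, as CPM (log axis for S100g, Trpv6 and Cyp27b1) or, for Cyp24a1, as counts, with a line at the median of each group of 5. Vdr lies below the vehicle median of 697 CPM in all 10 libraries at 9 weeks, S100g has a lower median in males in all 3 conditions, and 53 of the 59 Cyp24a1 counts are in 1 female library at 15 weeks.

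Both enzymes were near the limit of detection. Cyp27b1, the activating enzyme, had 3 to 22 counts per library. Its medians were 0.320 CPM and 0.373 CPM in vehicle-treated females and males, 0.340 CPM and 0.278 CPM at 9 weeks, and 0.361 CPM and 0.274 CPM at 15 weeks, with all groups overlapping. The log2 fold change was -0.01 at 9 weeks (95% CI -0.63 to 0.62) and 0.01 at 15 weeks (95% CI -0.67 to 0.69). At this depth a log2 change of 0.616 in either direction thus lies within both intervals. Of the genes most like it, Tagap1 and Pidd1 reached r of only 0.69 and 0.62.

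Cyp24a1, the inactivating enzyme and a known Vdr target, gave 59 counts in all 30 libraries. Of these, 53 came from female 15-week replicate 3 and 4 from female 15-week replicate 1, with 1 each in female vehicle replicate 3 and male 9-week replicate 1. The level was 2.13 CPM in the first of these mice and at most 0.192 CPM in the others. The remaining 26 libraries had 0 counts, which allows up to 3 counts, or 0.0921 to 0.320 CPM over the depths of the 30 libraries, for counting error only. Female 15-week replicate 3 also had the highest level of S100g, at 159.5 CPM. Cyp24a1 overlaps 718 bases of Pfdn4 on the other strand, which was at 6.71 to 12.1 CPM in every library. The strand setting of the counting was not given in the sources used here, so reads of overlapping genes on opposite strands may not have been told apart.

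Of the calcium transport genes, at 9 weeks Atp2b1 fell, Trpv6 had a higher mean that did not pass the test, and S100g had a lower mean that did not pass it either. S100g and Atp2b1 were lower in males.

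Trpv6, the apical calcium channel, ranged from 0.0593 CPM, which was 1 count, to 41.8 CPM. In vehicle-treated females it was at 15.8 CPM in replicate 1 and at 0.608, 0.407, 0.884 and 1.60 CPM in replicates 2 to 5. In vehicle-treated males it was at 24.8 CPM in replicate 1 and at 5.48, 3.26, 3.73 and 4.70 CPM in replicates 2 to 5. At 9 weeks females had 16.4, 41.8, 13.3, 3.45 and 0.215 CPM, and males had 21.2, 27.7, 19.1, 2.86 and 26.7 CPM. At 15 weeks females had 1.87, 0.893, 4.90, 1.43 and 4.402 CPM, and males had 0.0593, 6.24, 5.92, 9.92 and 2.98 CPM. In all, 7 of 10 libraries were above 10 CPM at 9 weeks, against 2 of 10 in vehicle and 0 of 10 at 15 weeks.

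The log2 fold change of Trpv6 at 9 weeks was 1.57 (SE 0.68, 95% CI 0.17 to 2.98, adjusted p = 0.122, edgeR), with 17.3 ± 13.03 CPM against 6.12 ± 7.94 CPM (SD, n = 10 each), and it was not called. It was 1.21 in males and 1.93 in females (adjusted p = 0.456 and 0.318, edgeR), neither called. The value depended on single libraries. It was 2.72 (adjusted p = 0.00576, edgeR) without female vehicle replicate 1, 2.06 (adjusted p = 0.0437, edgeR) without male vehicle replicate 1, and 3.37 (adjusted p = 0.000111, edgeR) without these and female 9-week replicate 5, which in females alone gave 4.55 (adjusted p = 0.00111, edgeR). Without female 9-week replicate 2, the highest library, it was 1.15 (adjusted p = 0.286, edgeR). From 9 to 15 weeks Trpv6 had a log2 difference of -2.22 (SE 0.70, 95% CI -3.66 to -0.77, adjusted p = 0.0625, edgeR), and it was called by DESeq2 (-2.21, adjusted p = 0.0290) and without female 9-week replicate 5 (-2.35, adjusted p = 0.0178, edgeR) or male 9-week replicate 4 (-2.36, adjusted p = 0.0461, edgeR), and without the 3 libraries (-2.37, adjusted p = 0.00213, edgeR). Without female 9-week replicate 2 it was -1.79 (adjusted p = 0.149, edgeR). Between 15 weeks and vehicle the log2 value was -0.64 (95% CI -2.05 to 0.77) and its sign turned without female vehicle replicate 1 (0.50).

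The level of Trpv6 followed markers of position along the colon. Over the 30 libraries the Pearson r of its log2 CPM with the mean of 4 distal colon markers (Hoxa13, Hoxb13, Hoxd12 and Hoxd13) was 0.74, and 0.85 within groups. With 4 proximal colon markers (Cyp2c55, Fabp2, Osr2 and Prap1) r was -0.72, and -0.72 within groups. With the neutrophil and macrophage markers r was 0.66 and 0.62 (0.57 and 0.42 within groups). With the absorptive colonocyte, B cell and mesenchyme markers r was -0.65, 0.62 and 0.55 (-0.60, 0.48 and 0.38 within groups). These are descriptions over libraries that share groups and differ in depth. The distal markers summed to 49.96 to 528 CPM in vehicle-treated females and 259 to 736 CPM in vehicle-treated males, to 20.4 to 252 CPM and 185 to 364 CPM at 9 weeks, and to 22.4 to 207 CPM and 83.7 to 339 CPM at 15 weeks, and Hoxd12 was at 0 in both 15-week groups. The proximal markers summed to 593 to 5958 CPM and 403 to 2847 CPM in vehicle, 465 to 6768 CPM and 545 to 1482 CPM at 9 weeks, and 2171 to 6396 CPM and 1222 to 4095 CPM at 15 weeks, females first. With the distal minus proximal score as a covariate, chosen after the data were seen, the log2 fold change of Trpv6 at 9 weeks was 2.15 (SE 0.44, adjusted p = 0.000786, edgeR), with 2.09 in males and 2.21 in females (adjusted p = 0.0213 and 0.0399, edgeR). The 15-week value turned to 1.36 (adjusted p = 0.0989, edgeR), and the difference between 15 and 9 weeks shrank to -0.79 (adjusted p = 0.551, edgeR). With the mesenchyme score that difference was -0.34 (adjusted p = 0.910, edgeR). With the distal minus proximal score (the colon segment score) the values of Vdr and Atp2b1 at 9 weeks were -0.50 (adjusted p = 0.00157, edgeR) and -0.44 (adjusted p = 0.0146, edgeR).

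The genes most like Trpv6 were Ankrd22, Ephb6 and Slc28a3, with r of 0.89, 0.89 and 0.88. Ephb6 is its neighbour, at chr6:41605482-41620509 on the plus strand, and ends 111 bases from the end of Trpv6, so the transcripts run towards each other. Ephb6 was at 51.1 CPM in male vehicle replicate 1 and at 0.158 to 13.5 CPM in the other libraries. Its log2 fold change at 9 weeks was 0.17 (adjusted p = 0.893, edgeR). Reads running past the end of either gene cannot be told apart without the strand setting, and their part in the likeness was not tested.

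**Figure D3:**
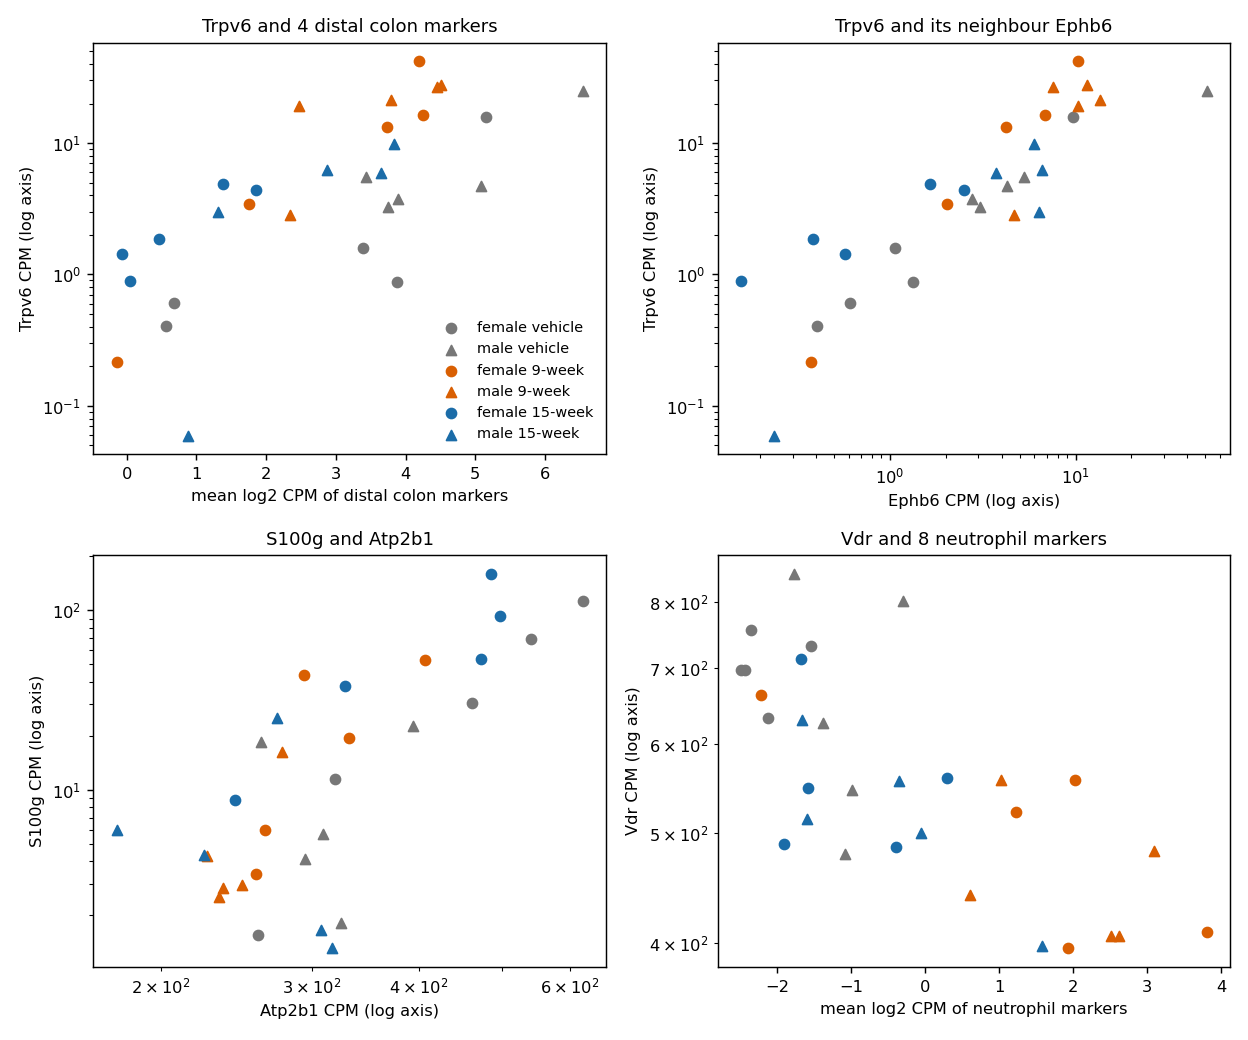
Pairs of measures in the 30 libraries: Trpv6 CPM (log axis) against the mean log2 CPM of 4 distal colon markers and against Ephb6 CPM (log axis), S100g CPM against Atp2b1 CPM (both log axes), and Vdr CPM (log axis) against the mean log2 CPM of 8 neutrophil markers; colours mark treatment and shapes mark sex. Over all libraries r was 0.74, 0.89, 0.73 and -0.73 on log2 scales.

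S100g, the cytosolic calcium carrier, was lower in males than in females. In vehicle-treated females it was at 11.4, 113, 68.9, 1.55 and 30.3 CPM, and in vehicle-treated males at 18.5, 5.65, 22.6, 1.80 and 4.11 CPM. At 9 weeks females had 3.38, 43.7, 19.3, 6.00 and 53.1 CPM and males 4.25, 2.53, 2.81, 2.95 and 16.2 CPM. At 15 weeks females had 53.7, 8.77, 159.5, 93.4 and 38.1 CPM and males 1.66, 1.31, 4.35, 25.2 and 5.96 CPM. Of 15 females, 9 were above the highest male, and the sexes overlapped in every condition.

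The log2 difference of S100g between males and females was -2.09 in vehicle (95% CI -4.03 to -0.15, adjusted p = 0.230, edgeR), -2.12 at 9 weeks (95% CI -4.08 to -0.15, adjusted p = 0.999, edgeR) and -3.23 at 15 weeks (95% CI -5.28 to -1.19, adjusted p = 0.134, edgeR). None was called, and 0.178%, 0.0492% and 0.184% of all genes were called in these comparisons. Pooled over conditions, the mean was 8.0 ± 8.23 CPM in males and 46.9 ± 45.7 CPM in females (SD, n = 15 each), and the log2 difference was -2.48 (SE 0.56, 95% CI -3.62 to -1.34, adjusted p = 0.0122, edgeR), a level 5.58-fold higher in females. S100g and Atp2b1 were the 2 members called in the pooled comparison, where 3.52% of all genes were called and 2.15% were called lower in males. The call held with each of the 30 libraries left out in turn, at log2 differences from -2.86 to -2.25. It was lost with the colon segment score as a covariate (-2.17, adjusted p = 0.243, edgeR). It was also lost with the mesenchyme score as a covariate (-2.18, adjusted p = 0.0992, edgeR) and on log2 TPM.

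After AOM/DSS, S100g had a log2 fold change of -0.86 at 9 weeks (95% CI -2.20 to 0.48, adjusted p = 0.415, edgeR) and of 0.08 at 15 weeks (95% CI -1.26 to 1.42, adjusted p = 0.944, edgeR). The intervals are wide, and a change of up to about 1.26 on the log2 scale in either direction at 15 weeks is within them. S100g lies wholly within Ctps2, which is on the other strand and was at 17.4 to 29.7 CPM, and the 2 genes had a Pearson r of 0.09 over the 30 libraries. The genes most like S100g were Gdpd2, Mpc1 and Fbxo9, with r of 0.78, 0.76 and 0.73.

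Atp2b1, the basolateral pump, fell at 9 weeks and was lower in males. In vehicle-treated females it was at 320, 622, 541, 260 and 461 CPM and in vehicle-treated males at 261, 309, 394, 324 and 295 CPM. At 9 weeks females had 258, 294, 331, 264 and 407 CPM and males 227, 234, 236, 249 and 277 CPM. At 15 weeks females had 473, 244, 486, 498 and 328 CPM and males 308, 317, 225, 274 and 177.6 CPM. Of the 10 libraries at 9 weeks, 8 lay below the vehicle median of 322 CPM, and the groups overlapped.

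The log2 fold change of Atp2b1 at 9 weeks was -0.44 (SE 0.15, 95% CI -0.74 to -0.14, adjusted p = 0.0407, edgeR), with 278 ± 55.4 CPM against 379 ± 124 CPM (SD, n = 10 each). The call was close to the threshold: it was lost without any of 14 of the 20 libraries, with the adjusted p reaching 0.0963 without female vehicle replicate 2. It was also lost with the mesenchyme score as a covariate (-0.34, adjusted p = 0.0995, edgeR), with the replicate block (-0.43, adjusted p = 0.0669, edgeR), with no filter on low counts (-0.43, adjusted p = 0.0610, edgeR), on log2 TPM (-0.084, adjusted p = 0.841, limma) and on TPM without mitochondrial genes (-0.41, adjusted p = 0.114, limma). In males alone the value was -0.37 and in females -0.50, neither called, and in females it was called without the 3 libraries least like their groups (-0.71, adjusted p = 0.0287, edgeR). At 15 weeks it was -0.20 (95% CI -0.50 to 0.10, adjusted p = 0.340, edgeR). Between males and females, pooled over conditions, the log2 difference was -0.49 (SE 0.12, 95% CI -0.74 to -0.24, adjusted p = 0.0192, edgeR), with 274 ± 53.0 CPM in males and 386 ± 120 CPM in females (SD, n = 15 each). The largest of the 3 single-condition values was -0.64 at 15 weeks (adjusted p = 0.162, edgeR). With the colon segment score as a covariate the pooled sex difference was -0.31 (adjusted p = 0.306, edgeR). It was -0.36 with the mesenchyme score (adjusted p = 0.186, edgeR) and -0.41 on TPM without mitochondrial genes (adjusted p = 0.0860, limma). The call was lost in each of these and on log2 TPM.

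Across the 30 libraries Atp2b1 and S100g had a Pearson r of 0.73 (0.61 within groups), and Atp2b1 and Vdr one of 0.62 (0.50 within groups). Trpv6 had r of -0.47 with Atp2b1 and -0.15 with S100g. With the macrophage and neutrophil markers Atp2b1 had r of -0.69 and -0.61 (-0.69 and -0.48 within groups). With absorptive colonocyte and proximal colon markers its r was 0.51 and 0.56 (0.60 and 0.51 within groups). The part of these cells in the level of Atp2b1 was not tested. Colon position entered only through the colon segment score as a covariate, with the values of Atp2b1 given above. The genes most like Atp2b1 were Ehhadh and Ppara, a peroxisomal enzyme of fatty acid oxidation and a nuclear receptor that controls it, and Ugt2b34, with r of 0.92, 0.92 and 0.92.

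**Figure D4:**
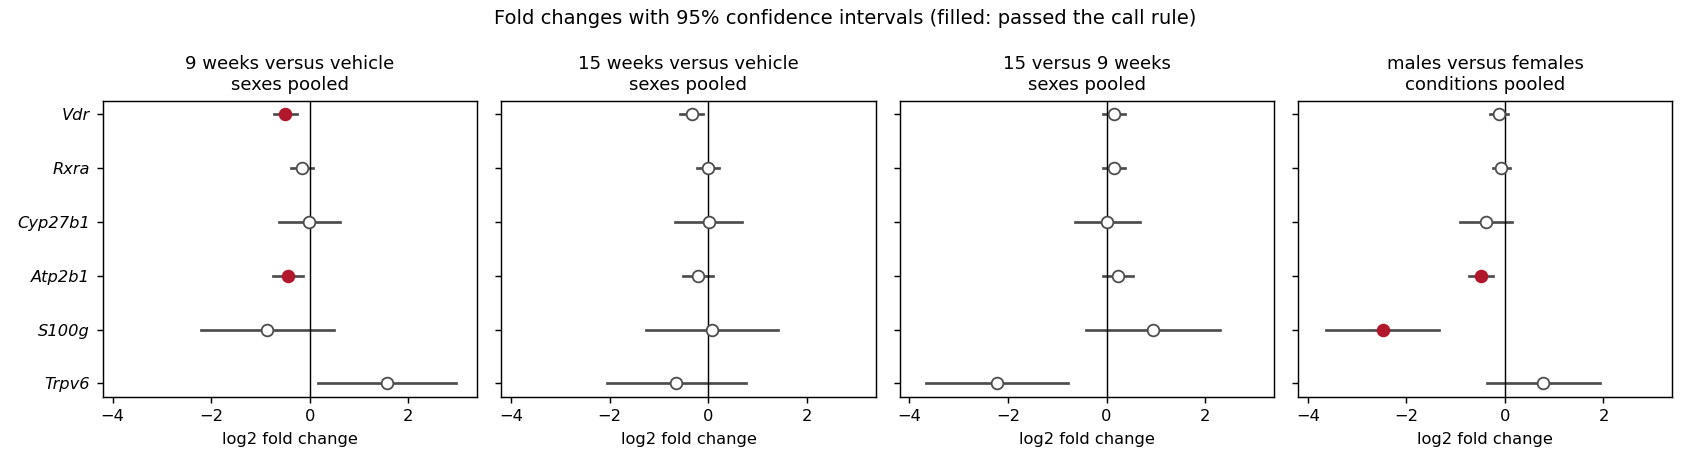
Log2 fold change (point) and 95% confidence interval (line) of the 6 genes tested, in the 3 comparisons over time with sexes pooled and in males versus females with conditions pooled; filled points passed the call rule. Vdr (-0.49) and Atp2b1 (-0.44) are filled at 9 weeks, and S100g (-2.48) and Atp2b1 (-0.49) between the sexes.

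The other genes of the pathway were described in 5 lists of 73 genes, of which 62 passed the filter. At 9 weeks 3 of the 62 were called higher and 4 lower, at 15 weeks 2 higher and 6 lower, and between 15 and 9 weeks 0 higher and 3 lower. Of all genes 8.51%, 7.79% and 2.42% were called in these comparisons, and 2.87% were called lower at 9 weeks. The median log2 fold change over all genes was -0.02, -0.03 and -0.02 in these comparisons.

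Of 11 genes of vitamin D metabolism and transport, 7 were tested, and 0 were called at 9 weeks, with a median log2 fold change of -0.55. The 25-hydroxylases Cyp2r1 and Cyp27a1 had log2 values of -0.35 and -0.57 (adjusted p = 0.281 and 0.0830, edgeR). Cyp2r1 had -0.67 at 15 weeks (adjusted p = 0.0305, edgeR) but was under the FPKM minimum. At 15 weeks 1 was called, Fgfr1, a receptor of fibroblast growth factors (-1.42, SE 0.43, adjusted p = 0.0251, edgeR), and its level was 1.03 ± 0.460 CPM against 3.64 ± 5.49 CPM in vehicle (SD, n = 10 each). Of the 13 tested receptor partners and coregulators, 0 were called at either time, with medians of -0.19 and -0.16.

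Among 15 other nuclear receptors that pair with retinoid X receptors, Ppara was lower at 9 weeks (-1.12, SE 0.34, adjusted p = 0.0235, edgeR). At 15 weeks Pparg, a receptor of fatty acid ligands, was higher (0.59, SE 0.16, adjusted p = 0.0159, edgeR) and Nr1i3, a sensor of foreign compounds, was lower (-1.002, SE 0.34, adjusted p = 0.0414, edgeR). Their median was -0.33 at 9 weeks and -0.16 at 15 weeks.

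Of the 12 tested genes of calcium and phosphate transport, Slc20a1, a sodium-coupled phosphate transporter, was lower at both times. Its level was 819 ± 469.5 CPM in vehicle, 375 ± 191 CPM at 9 weeks and 315 ± 179 CPM at 15 weeks (SD, n = 10 each), with log2 fold changes of -1.08 (adjusted p = 0.0305, edgeR) and -1.39 (adjusted p = 0.00996, edgeR). Atp2b4, another plasma membrane calcium pump, was lower at 15 weeks (-1.73, adjusted p = 0.0152, edgeR), with 1.87 ± 0.870 CPM against 9.52 ± 20.4 CPM (SD, n = 10 each). Smooth muscle markers were called lower in the same comparison, 7 of 8, with a summed level of 58.6 to 134 CPM and 120.8 to 5735 CPM in vehicle-treated females and males and of 64.6 to 131 CPM and 39.4 to 113 CPM at 15 weeks, and their part in the level of Atp2b4 was not tested. The calls of Atp2b4, of Fgfr1 and of these markers were not examined without male vehicle replicate 1, the library at 5735 CPM. The median of the calcium and phosphate transport list was -0.17 at 9 weeks and -0.24 at 15 weeks.

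Of 15 tested genes described elsewhere as Vdr targets, 3 were called higher and 2 lower at 9 weeks, where 8.51% of all genes were called and 2.87% were called lower. Cd14, a co-receptor for bacterial lipopolysaccharide, rose from 25.1 ± 10.3 to 66.8 ± 20.6 CPM (SD, n = 10 each; log2 fold change 1.41, adjusted p = 4.16e-05, edgeR). Nod2, a sensor of bacterial cell wall, rose from 3.37 ± 1.93 to 8.13 ± 1.05 CPM (1.403, adjusted p = 7.45e-05, edgeR). Spp1 (osteopontin) rose from 0.0174 ± 0.0420 to 2.18 ± 1.88 CPM (adjusted p = 5.81e-05, edgeR). The drug exporter Abcb1a fell from 1123 ± 382 to 640 ± 265 CPM (-0.83, adjusted p = 0.00613, edgeR) and the sugar phosphate transporter Slc37a2 from 436 ± 300 to 92.5 ± 54.8 CPM (-2.17, adjusted p = 0.0342, edgeR). Macrophage markers rose in the same comparison, 4 of 10, with summed levels of 14.6 to 109 CPM and 44.5 to 235 CPM in vehicle-treated females and males and of 56.1 to 228 CPM and 114.5 to 248 CPM at 9 weeks, and no marker of the list was at 0 in every library of a group. Their part in the levels of Cd14, Nod2 and Spp1 was not tested.

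At 15 weeks Cd14 was still higher than vehicle (0.68, adjusted p = 0.0303, edgeR) and Slc37a2 lower (-2.35, adjusted p = 0.0255, edgeR), and Igfbp3, a carrier of insulin-like growth factors, was lower (-1.79, adjusted p = 0.0230, edgeR). From 9 to 15 weeks Cd14 fell by 0.73, Thbd by 1.46 and Igfbp3 by 1.78 on the log2 scale (adjusted p = 0.0454, 0.0424 and 0.0478, edgeR). Mesenchyme markers were called lower in 5 of 10 at 15 weeks against vehicle and in 4 of 10 from 9 to 15 weeks, with medians of -1.32 and -1.66. Their summed level was 32.5 to 234 CPM and 121.7 to 1426 CPM in vehicle-treated females and males, 59.3 to 360.0 CPM and 177.3 to 431 CPM at 9 weeks, and 25.35 to 110.1 CPM and 18.2 to 229.7 CPM at 15 weeks, and no marker was at 0 throughout a group. The level of Igfbp3 was 10.7 ± 11.4 CPM in vehicle, 8.99 ± 5.97 CPM at 9 weeks and 2.63 ± 2.05 CPM at 15 weeks (SD, n = 10 each), and the part of mesenchyme in the levels of Igfbp3, Thbd and Fgfr1 was not tested. The list thus moved in both directions, with medians of 0.10 at 9 weeks and -0.09 at 15 weeks. Other known targets in the list, among them Cdkn1a, a cell cycle inhibitor (-0.13, adjusted p = 0.501, edgeR), and Cdh1, which encodes E-cadherin (0.09, adjusted p = 0.534, edgeR), were not called at 9 weeks.

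**Figure D5:**
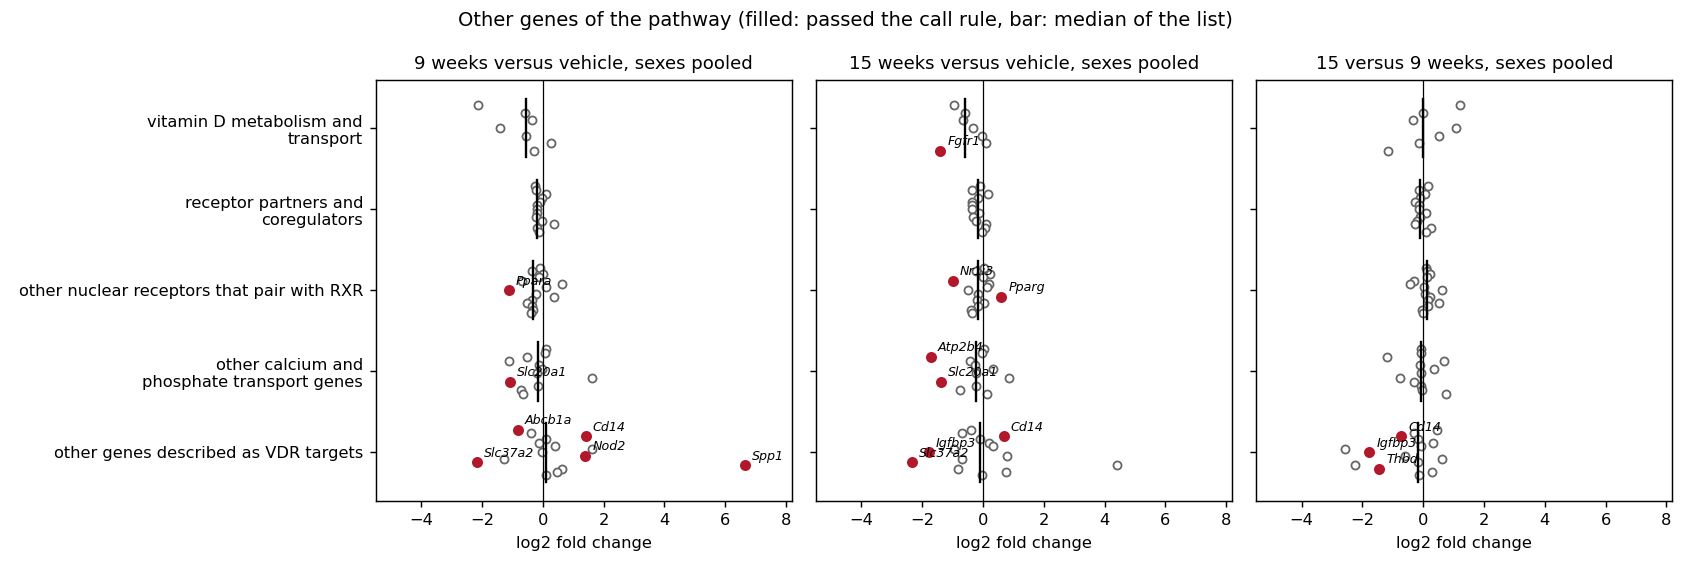
Log2 fold change of each tested gene of the 5 pathway lists in the 3 comparisons with sexes pooled; filled and named points passed the call rule, and the bar is the median of the list. Between 0 and 5 genes of a list are filled in each comparison, on both sides of 0 among the genes described as Vdr targets.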

How the data were processed

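Poly(A)-selected, stranded libraries of total RNA from colon scrapes were analysed. The authors aligned the reads to GRCm38 (mm10) with STAR after trimming, and the counts, as deposited, are their featureCounts values per gene, raw and whole, in 1 table of 30 libraries. Per library, the authors also deposited 1 StringTie table, from which the FPKM and TPM values were read; repeated lines of a gene (11 to 20 per file) were added, and 6 genes were missing from an abundance file. The submitters' processing notes give a version for bcl2fastq (2.20.0.422); the versions of STAR, featureCounts and StringTie and the strand setting of the counting are not given in the sources used here.

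Groups were taken from the labels, and no library was left out. Counts were tested with edgeR 4.0.16 in R 4.3.3 (filterByExpr, TMM, quasi-likelihood, 1 coefficient per group, all 30 libraries, 16261 genes), with Benjamini-Hochberg adjustment. CPM values use the TMM-scaled library size, and log2 CPM a prior count of 2. Alternatives were DESeq2 1.42.0, RLE scaling, no filter, the compared libraries only, the adjusted p alone, the replicate number as a block, a mesenchyme or colon segment score as a covariate, limma 3.58.1 on log2 TPM with a pseudocount of 0.5, with and without mitochondrial genes, and leaving libraries out. The edgeR, DESeq2 and limma fits were tested on simulated data. Motifs were counted in RefSeq windows.

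The members and lists were chosen with earlier results of these data known. Genes named besides the members are, in each list, up to 3 called per direction with the largest fold change, and for each member the 3 most like it among genes of at least 1 FPKM, of which 1 is not reported here; Cyp2r1, Cyp27a1, Cdkn1a and Cdh1 were named after their values were seen. The 60 pairs of libraries within groups were compared, and none was a copy (chi-square per degree of freedom 13.7 or more). Duplicate reads were not removed by molecular identifiers, so limits from counts cover counting error only.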

Additional observations from a re-analysis of the deposited data

Results flagged for a closer look

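Dixon's ratio was taken for 37 sets of 5 libraries, each set being 1 gene in 1 group. In 5 sets 1 library was far from the other 4 (above 0.71), where chance gives about 1 in 20 for a single set. The sets share the same 30 libraries, so they are not independent. Trpv6 was at 24.8 CPM in male vehicle replicate 1 against a group median of 4.70 CPM, at 2.86 CPM in male 9-week replicate 4 against 21.2 CPM, and at 0.0593 CPM (1 count) in male 15-week replicate 1 against 5.92 CPM. S100g was at 16.2 CPM in male 9-week replicate 5 against a group median of 2.95 CPM. Cyp27b1 was at 0.614 CPM (20 counts) in male 9-week replicate 4 against 0.278 CPM.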

How the results depend on the processing

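For 35 results on single genes, alternative values kept their direction and their side of the threshold in 835 cases, kept the direction but fell short of the threshold in 39, passed it where the reported value had not in 23, and changed sign in 78. The replicate numbers did not pair the libraries: over 75 same-numbered pairs the correlation of deviations from the group means ran from -0.58 to 0.47, with a median of -0.03, and 12 were over 0.1. The values with the number as a block stand below under the replicate block. The segment score, TPM without mitochondrial genes, the removal of 3 libraries together and the sex comparison with conditions pooled were chosen after the data were seen. The cause of each change below was not tested.

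Counts of members called moved as follows. At 9 weeks it was 0 on TPM and 1 with no filter, with the replicate block, with the mesenchyme score and on TPM without mitochondrial genes (2 reported). At 15 weeks it was 1 with the adjusted p alone and on TPM without mitochondrial genes (0 reported). Between 15 and 9 weeks it was 1 with DESeq2, with the compared libraries only, on TPM and without the 3 libraries (0 reported). In males at 9 weeks it was 0 with no filter, with the compared libraries only, with the replicate block, on TPM, on TPM without mitochondrial genes and without the 3 libraries and 2 with the segment score (1 reported). In females at 9 weeks it was 1 with the segment score and 3 without the 3 libraries (0 reported). In males at 15 weeks it was 1 on TPM without mitochondrial genes (0 reported). Between the sexes at 15 weeks it was 1 with DESeq2 (0 reported). Between the sexes with conditions pooled it was 0 with the mesenchyme score, on TPM and with the segment score and 1 on TPM without mitochondrial genes (2 reported). Leaving out each library in turn gave counts of 1 to 3 at 9 weeks, 0 to 1 between 15 and 9 weeks, 0 to 1 in males at 9 weeks, 0 to 1 in females at 9 weeks and 0 to 1 between the sexes in vehicle.

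Shares of all genes tested that were called moved by more than 1.5 times in count as follows. With the adjusted p alone they were 16.2% at 9 weeks, 17.4% at 15 weeks, 4.96% between 15 and 9 weeks, 14.4% in males at 15 weeks, 6.12% between the sexes with conditions pooled and 0.00615% for the sex difference of the 15-week change. On TPM they were 0.953% at 15 weeks, 50.8% between 15 and 9 weeks, 2.73% in males at 9 weeks, 1.91% in females at 9 weeks, 3.13% in males at 15 weeks, 0% in females at 15 weeks, 0.0799% between the sexes in vehicle, 0.0615% between the sexes at 15 weeks and 0.0984% between the sexes with conditions pooled. On TPM without mitochondrial genes they were 15.9% at 15 weeks, 6.86% between 15 and 9 weeks, 17.9% in males at 15 weeks, 0.0246% in females at 15 weeks, 0.0739% between the sexes in vehicle and 2.22% between the sexes with conditions pooled. With the segment score they were 3.65% at 15 weeks, 0.0553% between 15 and 9 weeks, 4.75% in males at 15 weeks, 0.246% in females at 15 weeks, 0.0553% between the sexes in vehicle and 0.129% between the sexes with conditions pooled. Without the 3 libraries they were 4.88% at 15 weeks, 8.87% between 15 and 9 weeks, 9.76% in females at 9 weeks, 5.13% in males at 15 weeks, 0.196% in females at 15 weeks, 3.27% between the sexes in vehicle and 2.05% between the sexes at 15 weeks. With DESeq2 they were 3.18% between 15 and 9 weeks, 0.609% in females at 15 weeks, 2.59% between the sexes in vehicle, 1.22% between the sexes at 15 weeks and 0.00358% for the sex difference of the 15-week change. With no filter they were 0.813% between 15 and 9 weeks. With the mesenchyme score they were 0% between 15 and 9 weeks, 1.09% in females at 9 weeks, 4.03% in males at 15 weeks, 0.043% between the sexes in vehicle, 0.99% between the sexes at 15 weeks and 0.184% between the sexes with conditions pooled. With the compared libraries only they were 1.79% in females at 9 weeks, 1.21% in males at 15 weeks, 0% in females at 15 weeks and 0.0467% between the sexes in vehicle. With the replicate block they were 0.0492% in females at 15 weeks and 0.0738% between the sexes in vehicle. Leaving out each library in turn gave 0.595% to 7.39% between 15 and 9 weeks, 4.67% to 8.57% in males at 9 weeks, 1.41% to 6.25% in females at 9 weeks, 3.76% to 11.9% in males at 15 weeks, 0.0122% to 0.194% in females at 15 weeks, 0.0486% to 6.37% between the sexes in vehicle, 0.0728% to 0.505% between the sexes at 15 weeks, 1.81% to 6.92% between the sexes with conditions pooled and 0% to 0.0182% for the sex difference of the 15-week change.

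None of the log2 values that changed sign was called as reported. Vdr between 15 and 9 weeks was -0.49 on TPM and -0.072 on TPM without mitochondrial genes. Vdr between the sexes with conditions pooled was 0.040 on TPM. Vdr for the sex difference of the 9-week change was 0.12 without the 3 libraries and -0.16 to 0.068 leaving out each library. Vdr for the sex difference of the 15-week change was 0.049 without the 3 libraries and -0.11 to 0.090 leaving out each library. Trpv6 at 15 weeks was 0.14 with the replicate block, 1.17 with the mesenchyme score, 1.36 with the segment score and 0.996 without the 3 libraries and -0.82 to 0.50 leaving out each library. Trpv6 between the sexes in vehicle was -0.23 with the mesenchyme score. Trpv6 between the sexes with conditions pooled was -0.045 with the segment score. S100g at 15 weeks was -0.33 with the mesenchyme score, -0.051 on TPM and -0.0062 with the segment score and -0.48 to 0.42 leaving out each library. Rxra at 9 weeks was 0.17 on TPM. Rxra at 15 weeks was 0.0096 with DESeq2, 0.0099 with RLE scaling, 0.0099 with no filter, 0.012 with the compared libraries only and 0.0014 with the replicate block and -0.074 to 0.049 leaving out each library. Cyp27b1 at 9 weeks was 0.0043 with DESeq2, 0.010 with the compared libraries only, 0.0070 with the replicate block, 0.045 with the mesenchyme score, 0.075 on TPM and 0.076 on TPM without mitochondrial genes and -0.22 to 0.17 leaving out each library. Cyp27b1 at 15 weeks was -0.065 with the mesenchyme score, -0.015 on TPM, -0.049 on TPM without mitochondrial genes, -0.036 with the segment score and -0.12 without the 3 libraries and -0.19 to 0.20 leaving out each library. Without female vehicle replicate 1 the pooled sex difference of Trpv6 was called, at 1.55. Depth limits Cyp24a1 and Cyp27b1, with at most 53 and 22 counts in a library, and the spread between mice limits Trpv6 and S100g.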
